A study of Mus musculus with 8 samples.

Results

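Hepatic genes that build triglyceride and load it onto very low density lipoprotein (VLDL) were compared between mice given the antisense oligonucleotide SPC3833 and mice given saline. The genes were chosen by name for their role, as 8 Ensembl identifiers: Gpam, Lpin1, Lpin2, Dgat1, Dgat2, Pnpla3, Mttp and Tm6sf2. The deposited table held 7 of the 8, among 22361 probe sets that carry 1 Ensembl mouse gene identifier each. Lpin2 was not analysed here.

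Livers came from female C57BL/6 mice (C57BL/6J in the growth protocol) on standard diet, 1 array per mouse. Each of the 4 mice of the SPC3833 group received 5 mg/kg by intravenous dosing, once a day for 3 days, and the control group (n = 4) received saline. The design text places the measurement on day 4, whereas the treatment protocol places sacrifice on day 3 and counts the day of the first dose as day 0. An antisense oligonucleotide is a short synthetic nucleic acid that pairs with a chosen transcript. Neither that transcript nor the age of the mice is given by the labels used here. Array means lay between 5.77 and 5.88 on the log2 scale, highest on SPC3833 array 2, and the brightest probe set of SPC3833 array 4 read 13.20, where those of the remaining 7 arrays read 14.06 to 14.18. Hepatocyte markers and markers of other liver cells were not analysed here, because the identifiers of the table could not be paired with their names. In whole liver, fewer cells of a type and less RNA per cell cannot be told apart.

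Triglyceride is assembled in the liver by stepwise acylation of glycerol 3-phosphate. An acyltransferase adds the first fatty acid and, after a further acylation, a lipin removes the phosphate to give diacylglycerol. A diacylglycerol acyltransferase adds the last fatty acid. The product is stored in lipid droplets or transferred in the endoplasmic reticulum onto apolipoprotein B to form VLDL, which is then secreted. In liver, Gpam and Pnpla3 are known targets of SREBP-1c, a transcription factor that insulin activates, while Lpin1 is known to rise in fasting.

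Gpam and Pnpla3 fell with SPC3833, to 47.9% and 59.3% of their saline levels. Dgat1, Dgat2 and Tm6sf2 averaged 1.04, 1.05 and 1.01 times their saline levels. Lpin1 was 1.80-fold higher and Mttp 1.38-fold lower on average, and neither passed the threshold, an adjusted p under 0.05. Thus 2 of the 7 genes changed, against 4.07% of all probe sets. Both were lower, a direction called for 1.74% of all probe sets, and 0 of the 7 were called higher, against 2.33% of all. All adjusted p-values are from limma, with Benjamini-Hochberg adjustment over all 22361 probe sets. An unadjusted p under 0.05 was reached by 4 of the 7, against 17.2% of all. The SPC3833 and saline values did not overlap for 3 of the 7, against 11.7% of all probe sets, and all 3 (Gpam, Pnpla3 and Mttp) were lower, against 4.34% of all. The median log2 change was 0.01 over the 7 genes and 0.03 over all probe sets. The median size of the change, regardless of direction, was 0.47 over the 7 and 0.10 over all. The genes were chosen with earlier results of these data known, so these comparisons with all probe sets are descriptions only.

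**Figure D1:**
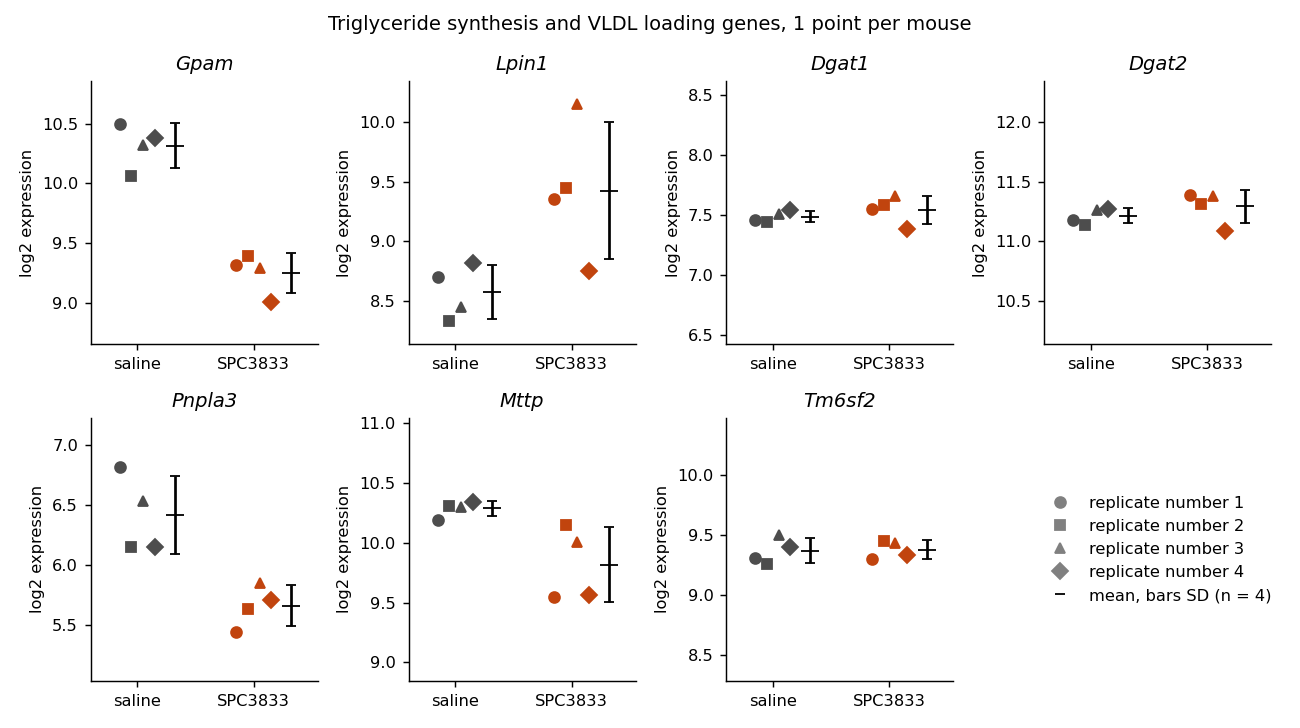
Log2 expression (vertical axes, each spanning the same range) of the 7 genes in each of the 8 mice, by group, with the group mean and SD (n = 4) beside the points. All SPC3833 values lie below all saline values for Gpam, Pnpla3 and Mttp, and the Lpin1 values of SPC3833 spread from 8.75 to 10.15.

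Gpam (ENSMUSG00000024978_at) encodes the mitochondrial glycerol 3-phosphate acyltransferase that adds the first fatty acid. Its log2 expression was 10.50, 10.06, 10.32 and 10.38 in saline mice 1 to 4. In SPC3833 mice 1 to 4 it was 9.32, 9.39, 9.29 and 9.01. Every SPC3833 mouse lay below every saline mouse, and the spread within each group was smaller than the step between them. The group means were 10.32 ± 0.19 and 9.25 ± 0.17 (SD, n = 4 each). The log2 change was -1.06 (SE 0.116, 95% interval -1.32 to -0.81, limma adjusted p = 0.000669), a 2.09-fold lower level with an interval from 1.75-fold to 2.49-fold. Ordered by log2 change, it was number 46 from the largest fall of the 22361 probe sets. The two-sided exact permutation p over the 70 assignments of the 8 mice was 0.0286, the smallest that 4 against 4 can give.

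Pnpla3 (ENSMUSG00000041653_at) encodes a lipid droplet protein with a patatin-like domain that acts on the acyl chains of glycerolipids. Its saline values were 6.82, 6.15, 6.53 and 6.15, and its SPC3833 values were 5.44, 5.63, 5.85 and 5.71. The groups did not overlap, although the saline mice spread over 0.67 and the highest SPC3833 mouse came within 0.29 of the lowest saline mouse. The means were 6.41 ± 0.33 and 5.66 ± 0.17 (SD, n = 4 each). This was the dimmest of the 7 genes, and its SPC3833 mean lay below the median of every SPC3833 array (5.672 to 5.781). The log2 change was -0.75 (SE 0.152, 95% interval -1.09 to -0.42, limma adjusted p = 0.0183), or 1.69-fold lower, with an exact permutation p of 0.0286. The call was close to the threshold: the adjusted p was 0.0579 without saline mouse 3, where the log2 change was -0.71, and 0.0572 without SPC3833 mouse 1, where it was -0.68.

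The promoter windows of Gpam and Pnpla3 are shown because these are the genes that fell. They are RefSeq windows of GRCm38.p6, from 250 bases before to 50 bases after the start of the gene, written along the gene's strand, and capitals mark letters that match a motif. Gpam has a second window in that table, which matched none of the motifs.
Gpam, chr19:55127189-55127488, minus strand: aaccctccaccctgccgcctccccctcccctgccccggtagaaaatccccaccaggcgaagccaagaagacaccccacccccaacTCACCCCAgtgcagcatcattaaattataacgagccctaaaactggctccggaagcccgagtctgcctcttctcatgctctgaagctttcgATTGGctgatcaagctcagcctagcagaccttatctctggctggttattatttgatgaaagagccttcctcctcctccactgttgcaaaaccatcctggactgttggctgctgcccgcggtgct
Pnpla3, chr15:84167566-84167865, plus strand: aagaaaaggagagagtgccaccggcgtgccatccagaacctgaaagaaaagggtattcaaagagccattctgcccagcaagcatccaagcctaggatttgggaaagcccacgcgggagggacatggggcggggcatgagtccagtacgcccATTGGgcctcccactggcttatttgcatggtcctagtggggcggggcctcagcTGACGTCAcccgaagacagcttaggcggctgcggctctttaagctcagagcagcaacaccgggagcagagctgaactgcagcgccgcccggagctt
Both strands were searched for TCACCCCA, a core of the sterol regulatory element bound by SREBP proteins, CCAAT, the box bound by NF-Y, CACGTG, an E-box, and TGACGTCA, the cAMP response element. The motifs were chosen after these windows had been read. The shares of all windows given below therefore do not measure how unusual a match is. The Gpam window held TCACCCCA starting at position -165, a motif present in 1.56% of the 32851 windows of the table. Gpam and Pnpla3 each held 1 CCAAT box on the opposite strand, at -74 and -99, and 37.4% of all windows hold one. The Pnpla3 window held TGACGTCA at -46, present in 1.79% of all windows. CACGTG, present in 7.15% of windows, was in neither. The single windows of Lpin1 and Mttp held none of the 4 motifs, and no matches overlapped. Only 5 of the 8 genes had a window. Dgat1, Dgat2 and Tm6sf2 had none, so those genes could not be compared. Windows of Lpin2, which has no expression values here, held CACGTG at -9 and CCAAT at -233, -165 and -57. These are matches of letters and were not tested as sites.

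Lpin1 (ENSMUSG00000020593_at) encodes lipin 1, the phosphatidate phosphatase that yields diacylglycerol and that also acts as a transcriptional coactivator in the nucleus. Its values were 8.70, 8.33, 8.45 and 8.82 in saline mice and 9.35, 9.45, 10.15 and 8.75 in SPC3833 mice. SPC3833 mouse 3 was the highest, 2.98-fold above the saline mean. SPC3833 mouse 4 lay inside the saline range, and the other 3 lay above every saline mouse. The means were 8.58 ± 0.22 and 9.42 ± 0.57 (SD, n = 4 each), and the SD was larger with SPC3833 than for any other of the 7 genes. The log2 change was 0.85 (SE 0.233, 95% interval 0.34 to 1.36) and did not pass (limma adjusted p = 0.067, exact permutation p = 0.0571). In size it was number 65 from the largest rise of all probe sets. Without SPC3833 mouse 4 the log2 change was 1.07 and passed (limma adjusted p = 0.0164). Without SPC3833 mouse 3 it was 0.61 (adjusted p = 0.0924).

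**Figure D2:**
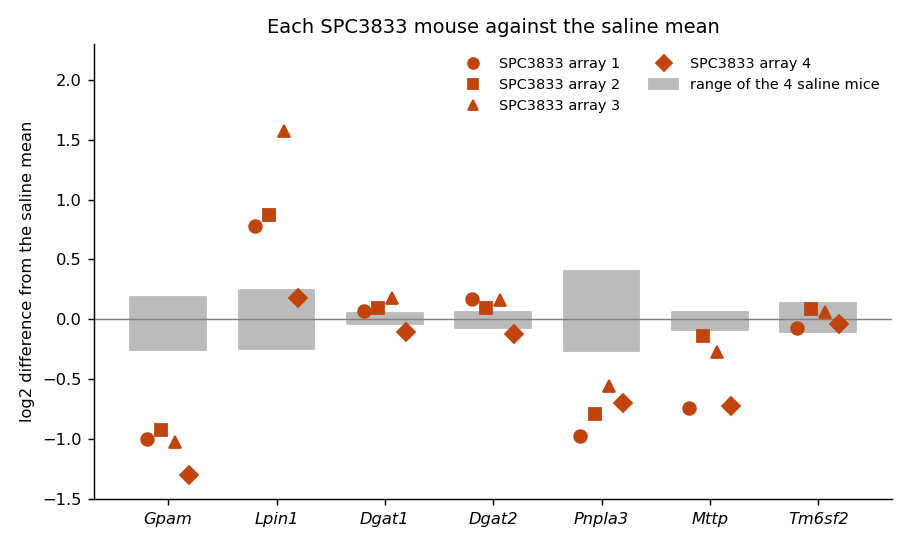
Log2 difference of each SPC3833 mouse from the saline mean (vertical axis) for the 7 genes, with the range of the 4 saline mice in grey. All 4 mice are lower for Gpam, between -1.30 and -0.92, whereas for Lpin1 they run from 0.18 to 1.57 and for Mttp from -0.74 to -0.14.

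Dgat1 and Dgat2 encode unrelated enzymes that carry out the same last step, the acylation of diacylglycerol. Dgat1 (ENSMUSG00000022555_at) was 7.46, 7.44, 7.51 and 7.54 in saline mice and 7.55, 7.58, 7.66 and 7.38 in SPC3833 mice. Dgat2 (ENSMUSG00000030747_at) was 11.18, 11.14, 11.26 and 11.27 in saline mice and 11.39, 11.31, 11.38 and 11.09 in SPC3833 mice. For both genes SPC3833 mice 1 to 3 lay above all saline mice and SPC3833 mouse 4 lay below all of them. The differences were small: the log2 change was 0.06 for Dgat1 (SE 0.086, limma adjusted p = 0.833). For Dgat2 it was 0.08 (SE 0.091, limma adjusted p = 0.771). The 95% intervals allow between 0.913 and 1.19 times the saline level for Dgat1 and between 0.919 and 1.21 times for Dgat2. The log2 ratio of Dgat1 to Dgat2 within a mouse, set to 0 at the saline mean, averaged -0.02 ± 0.06 (SD, n = 4) with SPC3833 against an SD of 0.02 with saline. This difference did not pass (two-sided exact permutation p = 0.743). It was the 1 ratio tested, since the planned ratios of Lpin1 to Lpin2 and of Mttp to Apob had no paired probe set.

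Mttp (ENSMUSG00000028158_at) encodes the large subunit of the microsomal triglyceride transfer protein, which loads lipid onto apolipoprotein B. Its saline values were 10.19, 10.31, 10.30 and 10.34, and its SPC3833 values were 9.55, 10.15, 10.01 and 9.56. The saline mice were close together, whereas SPC3833 mice 1 and 4 were low and SPC3833 mouse 2 lay only 0.04 under the lowest saline mouse. SPC3833 mice 1 and 4 were 1.67-fold and 1.65-fold below the saline mean. SPC3833 mice 2 and 3 were 1.10-fold and 1.21-fold below it. The means were 10.29 ± 0.06 and 9.82 ± 0.31 (SD, n = 4 each). The log2 change was -0.47 (SE 0.136, 95% interval -0.77 to -0.17), or 1.38-fold lower, and did not pass (limma adjusted p = 0.0824). The groups did not overlap, which by itself gives the smallest possible exact permutation p, 0.0286. That value is not adjusted for the number of probe sets. Quantile normalization gave the same log2 change, -0.47, with an adjusted p of 0.038. Without SPC3833 mouse 2 the log2 change was -0.58 and passed (limma adjusted p = 0.0278), and without SPC3833 mouse 1 or 4 it was -0.38 and did not pass.

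Tm6sf2 (ENSMUSG00000036151_at) encodes a membrane protein of the secretory pathway that takes part in lipid loading of VLDL. It was 9.31, 9.26, 9.50 and 9.40 in saline mice and 9.30, 9.45, 9.43 and 9.33 in SPC3833 mice. The SPC3833 values all lay inside the saline range. The log2 change was 0.01 (SE 0.087, limma adjusted p = 0.982). Its sign was not stable: the log2 change was between -0.03 and -0.02 under quantile normalization, cyclic loess normalization and centring on the median or the 75th percentile. The 95% interval allows between 0.882 and 1.15 times the saline level.

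**Figure D3:**
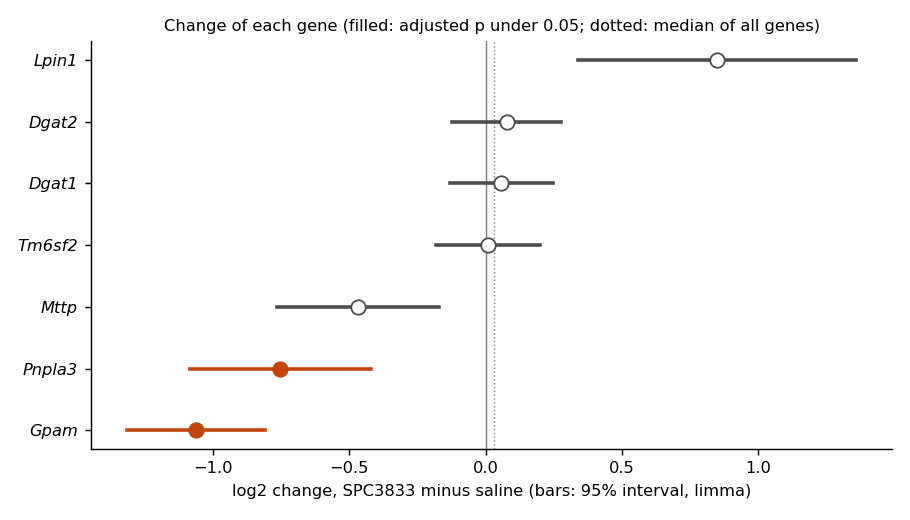
Log2 change of SPC3833 against saline (horizontal axis) with its 95% interval for the 7 genes, ordered by change. Filled points passed an adjusted p under 0.05, and the dotted line is the median of all probe sets, 0.03. Gpam and Pnpla3 are filled, and the intervals of Dgat1, Dgat2 and Tm6sf2 include 0.

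Ordered from the largest fall to the largest rise, the genes were Gpam, Pnpla3, Mttp, Tm6sf2, Dgat1, Dgat2 and Lpin1. The 95% intervals of neighbours in this order overlapped in each case but one: the interval of Lpin1 began at 0.34, above the upper end of Dgat2 at 0.28. Gpam and Lpin1, which act in the same linear path, therefore stood at opposite ends of the order. Gpam passed the threshold, whereas Lpin1 did not (limma adjusted p = 0.067). No difference between neighbours was tested.

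Array offsets were set beside these values. SPC3833 array 4 held the lowest SPC3833 value for 4 of the 7 genes and the highest for 0. SPC3833 array 1 held the lowest for 3 and the highest for 1. The share of all probe sets for which each array was lowest was not computed. The 500 other probe sets closest to Gpam in saline mean deviated from their own saline means by medians of -0.05, 0.13, 0.005 and -0.15 on SPC3833 arrays 1 to 4. Around Dgat2 the median on array 4 was -0.23, and around Lpin1, Dgat1 and Pnpla3 it was -0.02, 0.02 and -0.003. The probe sets used around Dgat2 spanned saline means from 10.03 to 12.38, against 7.40 to 7.57 around Dgat1. With these local offsets subtracted, a value with no model, the log2 changes were -1.04 for Gpam, -0.79 for Pnpla3, -0.45 for Mttp and 0.83 for Lpin1. The groups then also did not overlap for Lpin1. As deposited, SPC3833 mouse 4 (8.75) lay just under saline mouse 4 (8.82) for that gene. Offsets were subtracted from the saline arrays too, and the width of the resulting gap is not given here. Of the remaining genes, Dgat1, Dgat2 and Tm6sf2 stood at 0.02, 0.11 and 0.02.

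**Figure D4:**
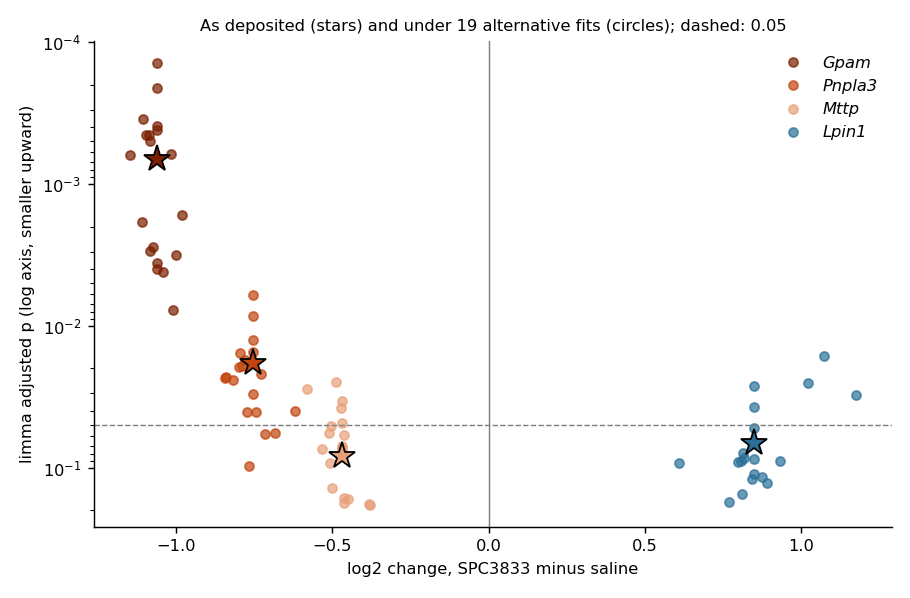
Log2 change (horizontal axis) against the limma adjusted p (vertical axis, log scale, smaller values upward) for Gpam, Pnpla3, Mttp and Lpin1, as deposited (stars) and under 19 alternative fits (circles). Gpam is past 0.05 in all 19, Pnpla3 in 16, and Mttp and Lpin1 in 5 each.

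The probe sets with profiles most like those of the genes that fell were sought over the 8 arrays, by the root mean square difference after each profile was centred on its own mean. The closest to Gpam was ENSMUSG00000032065, with a difference of 0.081 and a log2 change of -1.002 (limma adjusted p = 0.000604). The closest to Pnpla3 was ENSMUSG00000052920, with a difference of 0.182 and a log2 change of -0.49 (limma adjusted p = 0.0394). Between Gpam and Pnpla3 the difference was 0.268, and Pnpla3 was number 115 in likeness to Gpam. Mttp was number 369. The likeness is a description over mice of both groups, so it mostly follows the step between groups.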

How the data were processed

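Expression was measured on 8 Affymetrix arrays. Liver RNA was extracted with Trizol and RNeasy columns and labelled by a whole-transcript assay, per the labels' protocols. The authors deposited log2 expression values (0.88 to 14.18, no missing value); their scale was taken from that range. The submitters' processing notes list affy, with no role. How background, scaling and probe sets were handled, and on which build, was not given in the sources used here.

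Groups came from the sample titles. Arrays shared at most 0.134% identical values and were counted as separate mice. All 22361 probe sets were fitted with limma 3.58.1 in R 4.3.3 (lmFit, eBayes, two-sided, no covariate, no filter), and called at a Benjamini-Hochberg adjusted p under 0.05. Two-sided exact permutation tests used all 70 assignments (scipy 1.17.1), and their p-values were not adjusted. The fit was tested on simulated data. Figures used matplotlib 3.10.9.

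The genes, lists and tests were chosen with earlier results of these data known. The rule for named genes took all listed genes, and for each gene called the closest profiles, of which at most 2 unnamed identifiers were printed. Gene names of the 8 identifiers came with the list. The RefSeq table (49997 genes of GRCm38.p6) pairs 0 with an Ensembl identifier, so 4 further lists of pathway genes and regulators, the cell type markers and Apob were not analysed here. Alternatives were other scalings, filters, variance models, array weights, the replicate block, left-out arrays and thresholds; cyclic loess and local offsets were added after the data were seen.

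The replicate numbers were treated as names, not as pairs, as the labels give them only in titles and descriptions. The number of arrays limits the precision: the median SE of a log2 change was 0.106.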

Additional observations from a re-analysis of the deposited data

Results flagged for a closer look

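Of 16 sets of 4 values examined, 1 held a mouse set apart from the others. For each single set, chance gives this in about 1 in 20. The sets were not independent, since the Dgat1 to Dgat2 ratio was examined beside the values of both genes. In SPC3833 mouse 1 the log2 ratio of Dgat1 to Dgat2, relative to the saline mean, was -0.11, against values from 0.00 to 0.01 in SPC3833 mice 2 to 4 and from -0.03 to 0.03 in saline mice. This depended on the scaling, as seen with the local brightness offsets, an alternative added after the data were seen. With them subtracted, the ratio was -0.14 in SPC3833 mouse 1 and -0.23 in SPC3833 mouse 4, so mouse 1 was no longer the lowest. On SPC3833 array 4 the offset subtracted was -0.23 for Dgat2 and 0.02 for Dgat1. The Dgat2 offset came from probe sets over a wide span of saline means, 10.03 to 12.38, against 7.40 to 7.57 for Dgat1.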

How the results depend on the processing

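Gpam passed in all 19 alternative fits, with log2 changes from -1.15 to -0.98 and adjusted p from 0.000142 to 0.00773. Dgat1, Dgat2 and Tm6sf2 passed in none. Pnpla3 passed in 16 (adjusted p 0.00609 to 0.0973), Mttp in 5 (0.0251 to 0.183) and Lpin1 in 5 (0.0164 to 0.174). Without SPC3833 arrays 2 and 4 together, Pnpla3 did not pass (-0.76, adjusted p = 0.0973), Lpin1 did (1.18, 0.0308), and 1 gene was called higher and 1 lower. Mttp passed after quantile normalization (-0.47) and cyclic loess (-0.49). Lpin1 passed with array weights (1.02), so that 1 gene was called higher. Filters on dim probe sets at the 25th percentile or the median left log2 changes as they were (Lpin1 0.85, Mttp -0.47) and both genes passed. This gave 4 changed, 1 of them higher, against 7.72% and 13.9% of the probe sets then tested. Fewer probe sets were tested there, and the SE was also smaller. At the 25th percentile it was 0.225 for Lpin1 and 0.132 for Mttp, against 0.233 and 0.136 without a filter. What moved these calls was not tested. At adjusted p under 0.01 the count was 1, which was lower, and under 0.1 it was 4, with 1 higher. Tm6sf2 turned to -0.03 after quantile normalization and centring on the median, to -0.02 after centring on the 75th percentile and cyclic loess, and to -0.01 without SPC3833 arrays 2 and 4. Where no cause is given, the cause was not tested.

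Leaving out 1 array gave log2 changes of -1.15 to -0.98 for Gpam, -0.84 to -0.62 for Pnpla3, -0.58 to -0.38 for Mttp, 0.61 to 1.07 for Lpin1, 0.02 to 0.11 for Dgat1, 0.04 to 0.14 for Dgat2 and -0.03 to 0.05 for Tm6sf2. It gave 1 to 3 genes changed, 0 to 1 higher and 1 to 3 lower, and the Dgat1 to Dgat2 difference ran from -0.031 to 0.009 (0.009 without SPC3833 mouse 1). That difference was -0.055 after quantile normalization, -0.046 without SPC3833 arrays 2 and 4, and -0.093 with local offsets subtracted, and passed in none of these (two-sided exact permutation p = 0.514, 0.533 and 0.229).

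Deviations of same-numbered mice correlated, across genes, at 0.159, 0.043, -0.030 and 0.145, and since 2 of the 4 were under 0.1 the numbers were not taken as pairs. As a hint from the data, not the design, 5 of 8 arrays correlated best with their own number. With the replicate block the calls stood as reported (Gpam adjusted p = 0.00395, Pnpla3 0.0305, Mttp 0.0703, Lpin1 0.0877), and 856 probe sets changed in all.

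Of all probe sets 911 changed, 521 higher and 390 lower. The split was 454 and 612 after quantile normalization, 276 and 487 centred on the median, 439 and 531 centred on the 75th percentile, and 441 and 642 after cyclic loess. The count was 296 at adjusted p under 0.01, 1582 under 0.1, 1552 above the median, 545 without SPC3833 arrays 2 and 4, and 467 to 967 with 1 array left out. The ratios of Lpin1 to Lpin2 and of Mttp to Apob and the tests of lists were not run.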
